A study of Homo sapiens with 6 samples.

Results

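The genes described here are 10 genes of the Notch pathway, NOTCH1, NOTCH2, NOTCH3, JAG1, JAG2, DLL1, RBPJ, MAML1, HES1 and HEY1, taken by symbol from the 78932 genes of a count table. RNA-seq was made from T24, an established cell line of human urothelial carcinoma, transfected either with a non-targeting siRNA (siNC, 3 libraries) or with siRNA against TRIM28 (siTRIM28, 3 libraries). TRIM28 is a nuclear corepressor and SUMO ligase. The labels name no other treatment, put all 6 libraries in 1 batch and call the 3 of each group biological replicates without naming separate cultures, so p-values measure the spread between these libraries. The labels name neither the siRNA sequence used nor the time between transfection and harvest, and 1 cell line limits the groups as a model of bladder cancer.

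Notch receptors are single-pass membrane proteins that are switched on by ligands on a neighbouring cell. Ligand binding lets ADAM proteases and then γ-secretase cut the receptor, and the freed intracellular domain enters the nucleus, where it joins the DNA-binding protein RBPJ and a Mastermind coactivator on target genes such as the HES and HEY repressors. In epithelia the pathway takes part in the choice between proliferation and differentiation. Since these are RNA levels of bulk cultures, fewer cells expressing a gene and less RNA of it per cell cannot be told apart.

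Total counts were 12989362 to 13942383 in siNC and 11712623 to 14018052 in siTRIM28. The targeted gene matched the labels, since TRIM28 fell from 104 ± 4.09 to 8.87 ± 0.658 CPM (counts scaled to a common library total by TMM, mean ± SD, n = 3), by −3.54 on the log2 scale (edgeR, adjusted p = 1.03e-10). Replicate libraries were not equally alike. The chi-square per degree of freedom over genes was 1.076 between siNC 1 and siNC 2 but 4.166 and 4.22 between these and siNC 3. It was 1.218 between siTRIM28 2 and siTRIM28 3 but 6.246 and 5.651 between these and siTRIM28 1. Sampling of counts alone gives a value near 1, so the closest libraries of each group differed little beyond it. Of 12 urothelial markers only KRT7, KRT8, KRT18 and TP63 reached the count minimum. CDH1, KRT5, EPCAM, GATA3, KRT19 and the uroplakins did not, UPK1B being at 0 in every library. TP63 reached the minimum only through siTRIM28, with 9, 4 and 6 counts in siNC and 11, 15 and 10 in siTRIM28. The summed level of the 3 mesenchymal markers was 1150 to 1180 CPM in siNC and 1400 to 1500 CPM in siTRIM28, most of it VIM, which rose from 1100 ± 12 to 1390 ± 54.9 CPM (adjusted p = 2.56e-05), while CDH2 and FN1 were not called. The summed level of the 12 urothelial markers was 191 to 198 CPM in siNC and 209 to 216 CPM in siTRIM28. By edgeR, KRT7 (0.56 on the log2 scale, adjusted p = 0.0126) and KRT8 (0.14, adjusted p = 0.0354) were higher. KRT18 and TP63 were not called, and over all genes tested 21.3% rose. The part of these differences in the results for the Notch genes was not tested. None of the leukocyte, endothelial and fibroblast lists, each summed on its own, came to more than 1.6 CPM in any library.

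The DNA upstream of 3 pathway genes is shown because RBPJ acts at the DNA of its target genes. HES1, a target gene, did not pass the test, HES4, another target gene, rose, and JAG2, a ligand, had the largest change among the 10 genes. Each sequence is from RefSeq (GRCh38.p14), 5′ to 3′ on the gene's strand, with capitals marking TGGGAA, the core letters of the RBPJ motif, searched on both strands (TTCCCA on the other). HES1 is chr3:194135898-194136147 on the plus strand, HES4 is chr1:1000098-1000347 on the minus strand, and JAG2 is chr14:105168825-105169026 on the minus strand, the part of its window outside the gene as the count table bounds it.
HES1: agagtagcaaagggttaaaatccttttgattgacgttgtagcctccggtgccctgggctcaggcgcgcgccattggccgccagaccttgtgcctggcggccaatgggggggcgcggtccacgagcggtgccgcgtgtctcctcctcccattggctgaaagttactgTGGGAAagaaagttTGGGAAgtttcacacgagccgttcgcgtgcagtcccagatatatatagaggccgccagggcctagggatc
HES4: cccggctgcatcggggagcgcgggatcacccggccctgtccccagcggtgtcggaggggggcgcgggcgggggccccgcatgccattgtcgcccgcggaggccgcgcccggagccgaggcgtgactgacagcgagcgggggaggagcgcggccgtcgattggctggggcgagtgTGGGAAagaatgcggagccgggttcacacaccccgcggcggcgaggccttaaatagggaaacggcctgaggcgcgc
JAG2: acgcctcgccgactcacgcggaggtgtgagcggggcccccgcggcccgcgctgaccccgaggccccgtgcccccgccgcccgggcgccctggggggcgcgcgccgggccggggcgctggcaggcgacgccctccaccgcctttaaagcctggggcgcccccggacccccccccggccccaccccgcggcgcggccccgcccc
The HES1 window held the core letters at 84 and 70 bases before the start, and the HES4 window held them at 76 bases before it. The JAG2 window held none over its 250 bases. Of 35116 promoter windows of 250 bases, 20.8% held TGGGAA at least once, 2.9% held it at 2 or more places, and 5.43% held the longer GTGGGAA, which contains the shorter motif. Of the 10 genes, 8 had a promoter in the RefSeq table, and DLL1 and HEY1 did not. No match was found for JAG1, MAML1, NOTCH1, NOTCH2 or NOTCH3, and RBPJ had 2 matches in 1 of its 5 windows. Among the other target genes, HES5 and HEYL had 2 matches each and HEY2 had 1, all 3 being under the count minimum. NRARP, which was tested, had no match. A match is a stretch of letters and not a measured binding site.

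Per kilobase of gene length, HES1 was the highest of the 10 genes in siNC, at 7.40 ± 0.746 RPKM (CPM divided by the gene's length in kilobases, mean ± SD, n = 3). MAML1 followed at 4.57 ± 0.301 RPKM. NOTCH2, at 3.54 ± 0.108, and RBPJ, at 3.43 ± 0.120 RPKM, overlapped in range, and JAG1 came next at 3.17 ± 0.203 RPKM. The low genes were DLL1 at 0.890 ± 0.121, JAG2 at 0.530 ± 0.0482, NOTCH1 at 0.439 ± 0.106 and HEY1 at 0.386 ± 0.144 RPKM. JAG2 overlapped with NOTCH1 in range, and NOTCH1 with HEY1. NOTCH3 was lowest, at 0.0104 ± 0.00426 RPKM. On this scale NOTCH2 was the highest of the 3 receptors and JAG1 the highest of the 3 ligands. What the deposited lengths cover was not checked. The length is 15311 bases for RBPJ, and for HEY1 it is 5487 bases, more than its deposited start and end span. If the lengths cover every annotated exon, a gene with many alternative exons has a lower value than its main transcript would give. The order by RPKM rests on these lengths.

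**Figure D1:**
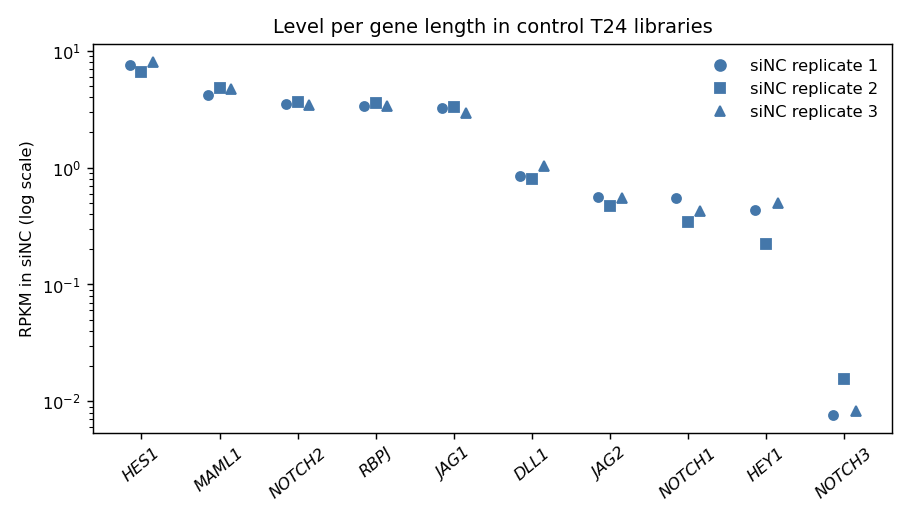
RPKM (log axis) of the 10 genes in the 3 siNC libraries (points, 1 per library), in order of the mean. HES1 lies highest at 7.40 RPKM on average, NOTCH2 lies above NOTCH1, JAG1 lies above DLL1 and JAG2, and NOTCH3 lies at 0.0104 RPKM.

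After TRIM28 knockdown, 3 of the 9 tested genes rose, JAG2, RBPJ and MAML1, none fell, and the other 6 did not pass the test (edgeR's quasi-likelihood test, Benjamini-Hochberg adjusted p under 0.05). Across all 18474 genes tested, 21.3% rose, 20.5% fell and 41.8% moved in either direction, and with 9 genes a count of 3 higher is not set apart from that background. The count of 0 lower was also given by DESeq2 and limma-voom, and at an unadjusted p under 0.05 by edgeR it was 1, JAG1. With a log2 fold change of at least 0.58 in either direction asked for as well, only JAG2 was called, against 17.0% of all genes. The groups did not overlap for 5 of the 9 genes, JAG1, JAG2, RBPJ, MAML1 and HEY1, against 52.0% of all genes. The median log2 fold change was 0.21 over the 9 genes and 0.015 over all genes tested.

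**Figure D2:**
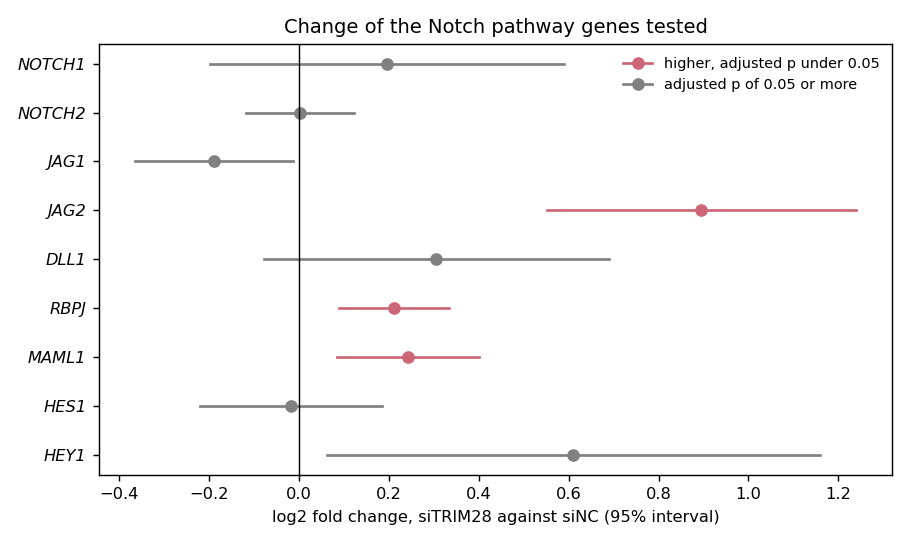
Log2 fold change of siTRIM28 against siNC for the 9 tested genes, with the 95% interval from edgeR as a bar. JAG2 lies at 0.90, RBPJ and MAML1 lie at 0.21 and 0.24, and the intervals of NOTCH1, NOTCH2, DLL1 and HES1 cross 0.

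Among the ligands, JAG2 (ENSG00000184916, chromosome 14, 105140982 to 105168824, GRCh38, minus strand) was the gene with the clearest change. JAG2 encodes a Jagged-type ligand. Its counts were 50, 42 and 45 in siNC and 81, 85 and 71 in siTRIM28, which is 3.60, 3.03 and 3.53 CPM against 5.78, 7.18 and 6.0 CPM. Every siTRIM28 library lay above every siNC library. JAG2 rose 1.86-fold (3.39 ± 0.308 CPM in siNC, 6.32 ± 0.751 CPM in siTRIM28), which is 0.90 on the log2 scale (SE 0.156, adjusted p = 7.1e-04), and it was called under every alternative tried, at 0.79 to 0.99. An unnamed gene on the same strand, ENSG00000257622, overlaps JAG2 in the table and held 12 to 18 counts in every library, with a log2 fold change of 0.0058.

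JAG1 (ENSG00000101384, chromosome 20, 10637684 to 10673999, minus strand), the other Jagged ligand and the more abundant of the pair, moved the other way without passing the test. Its CPM was 30.1, 31.0 and 27.4 in siNC and 27.1, 23.2 and 27.3 in siTRIM28. All siTRIM28 values lay below all siNC values, but the nearest libraries, siNC 3 and siTRIM28 3, were almost level. The log2 fold change was −0.19 (SE 0.0798, 95% interval −0.36 to −0.014, adjusted p = 0.0785). Without siTRIM28 1, 1 of the libraries that stood apart, JAG1 was called lower at −0.22 (adjusted p = 0.0228), and without both siNC 3 and siTRIM28 1 at −0.28 (adjusted p = 0.0107). Both settings kept only the closest siTRIM28 libraries. At no other setting was JAG1 called. It was −0.13 without siTRIM28 2 (adjusted p = 0.221) and −0.15 without siNC 2 (adjusted p = 0.223). With the closest libraries summed it was −0.16 (adjusted p = 0.192), and by DESeq2 −0.195 (adjusted p = 0.18).

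DLL1 (ENSG00000198719, chromosome 6, 170282206 to 170306565, minus strand), a Delta-type ligand, had 45, 42 and 50 counts in siNC and 61, 42 and 55 in siTRIM28. The groups overlapped, and the log2 fold change was 0.31 (SE 0.175, 95% interval −0.077 to 0.69, adjusted p = 0.185). FAM120B lies on the opposite strand of part of DLL1 and had 2568 counts over the 6 libraries against 295 for DLL1. The library kit keeps strand, but whether the counting used it is not given in the sources used here. Without strand, reads of a gene and of its opposite-strand neighbour cannot be told apart. DLL3 and DLL4, the remaining canonical ligands, were not called: DLL3 was tested, with a log2 fold change of −0.44 (adjusted p = 0.155), and DLL4 was under the count minimum.

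**Figure D3:**
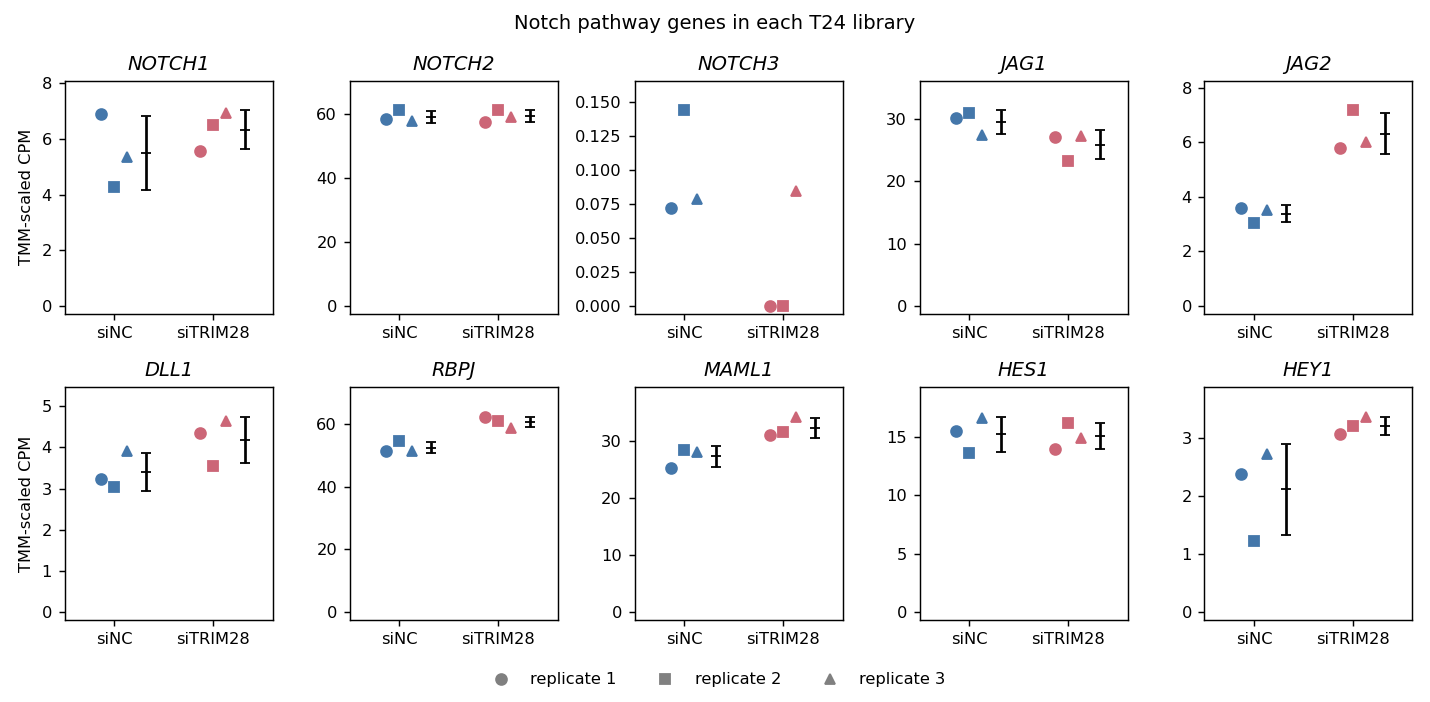
TMM-scaled CPM of the 10 genes in each library (points; circle, square and triangle are replicates 1, 2 and 3), with the mean ± SD of the 3 libraries of a group beside them (no mean is drawn for NOTCH3). JAG2, RBPJ, MAML1 and HEY1 lie higher in all 3 siTRIM28 libraries than in any siNC library, and NOTCH2 and HES1 overlap.

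Of the receptors, NOTCH2 (ENSG00000134250, chromosome 1, 119911553 to 120100779, minus strand) held 58.6, 61.2 and 57.8 CPM in siNC and 57.6, 61.2 and 59.2 CPM in siTRIM28. The groups overlapped throughout. Its log2 fold change was 0.0029 (SE 0.0547, adjusted p = 0.973), with a 95% interval of −0.12 to 0.12. Of the 11290 stretches of 100 bases in its longest GENCODE 29 transcript, 164 (1.45%) also lie in NOTCH2NLA or NOTCH2P1, so reads from these stretches cannot be assigned by sequence alone. NOTCH2NLB, NOTCH2NLC and NOTCH2NLR were not part of that sequence comparison. The 4 NOTCH2NL genes that were tested, NOTCH2NLA, NOTCH2NLB, NOTCH2NLC and NOTCH2NLR, had log2 fold changes of −0.48 to 0.15, and none was called, nor had any an unadjusted p under 0.05.

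NOTCH1 (ENSG00000148400, chromosome 9, 136494433 to 136546048, minus strand) had 96, 59 and 68 counts in siNC and 78, 77 and 82 in siTRIM28. The groups overlapped, and the log2 fold change was 0.20 (SE 0.179, 95% interval −0.20 to 0.59, adjusted p = 0.416). It ranged from 0.036 without siNC 2 to 0.39 without siNC 1. NOTCH3 (ENSG00000074181, chromosome 19, 15159038 to 15200995, minus strand) had 1, 2 and 1 counts in siNC and 0, 0 and 1 in siTRIM28. These lie under the limit that 3 counts set, 0.214 to 0.253 CPM per library, so no change could be detected at this depth. NOTCH4 was also under the count minimum.

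RBPJ (ENSG00000168214, chromosome 4, 26163455 to 26431168, plus strand), the DNA-binding factor of the pathway, had 51.6, 54.7 and 51.4 CPM in siNC and 62.4, 61.1 and 58.9 CPM in siTRIM28. Its groups did not overlap. It rose by a log2 fold change of 0.21 (SE 0.0559, 95% interval 0.089 to 0.33, adjusted p = 0.00977), or 15.8%. Without siNC 1 it no longer passed, at 0.19 (adjusted p = 0.0545).

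MAML1 (ENSG00000161021, chromosome 5, 179732822 to 179774468, plus strand), a Mastermind coactivator, had 25.2, 28.5 and 28.1 CPM in siNC and 31.0, 31.5 and 34.3 CPM in siTRIM28. Its groups did not overlap either. It rose by 0.24 on the log2 scale (SE 0.0721, 95% interval 0.084 to 0.40, adjusted p = 0.0180), or 18.3%. It was not called by DESeq2, at 0.24 (adjusted p = 0.0742), nor without siNC 1, at 0.18 (adjusted p = 0.1), without siTRIM28 3, at 0.19 (adjusted p = 0.0756), or with the closest replicate libraries summed, at 0.22 (adjusted p = 0.0544).

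Among the target genes, HES1 (ENSG00000114315, chromosome 3, 194136148 to 194138732, plus strand), a transcriptional repressor, had 15.5, 13.6 and 16.6 CPM in siNC and 14.0, 16.2 and 14.9 CPM in siTRIM28. The values overlapped, and the log2 fold change was −0.018 (SE 0.0920, 95% interval −0.22 to 0.18, adjusted p = 0.896). LINC02924 lies on the opposite strand of part of HES1, with counts equal to 25.8% of those of HES1. Its log2 fold change was 0.45 (adjusted p = 0.0831 by edgeR). Whether its reads entered the HES1 counts was not tested.

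HEY1 (ENSG00000164683, chromosome 8, 79762371 to 79767838, minus strand), the other HES-family repressor in the list, had 33, 17 and 35 counts in siNC and 43, 38 and 40 in siTRIM28. Its CPM did not overlap, with 2.38, 1.23 and 2.74 against 3.07, 3.21 and 3.38, but the spread in siNC, where siNC 2 was low, was wide. The log2 fold change was 0.61 (SE 0.250, 95% interval 0.063 to 1.16) and missed the threshold (adjusted p = 0.0705). It was 0.33 without siNC 2 (adjusted p = 0.237), 0.83 without siNC 3 (adjusted p = 0.0359), 0.60 without the filter on low counts (adjusted p = 0.0427) and 0.87 without siNC 3 and siTRIM28 1 (adjusted p = 0.0178). LINC01607 lies on the opposite strand with 60 counts in all against 206 for HEY1, and it rose by 0.88 (adjusted p = 0.0453).

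By an exact two-sided permutation test of log2 CPM, the 5 genes whose groups did not overlap each gave p = 0.1, the smallest that 3 against 3 libraries allow.

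**Figure D4:**
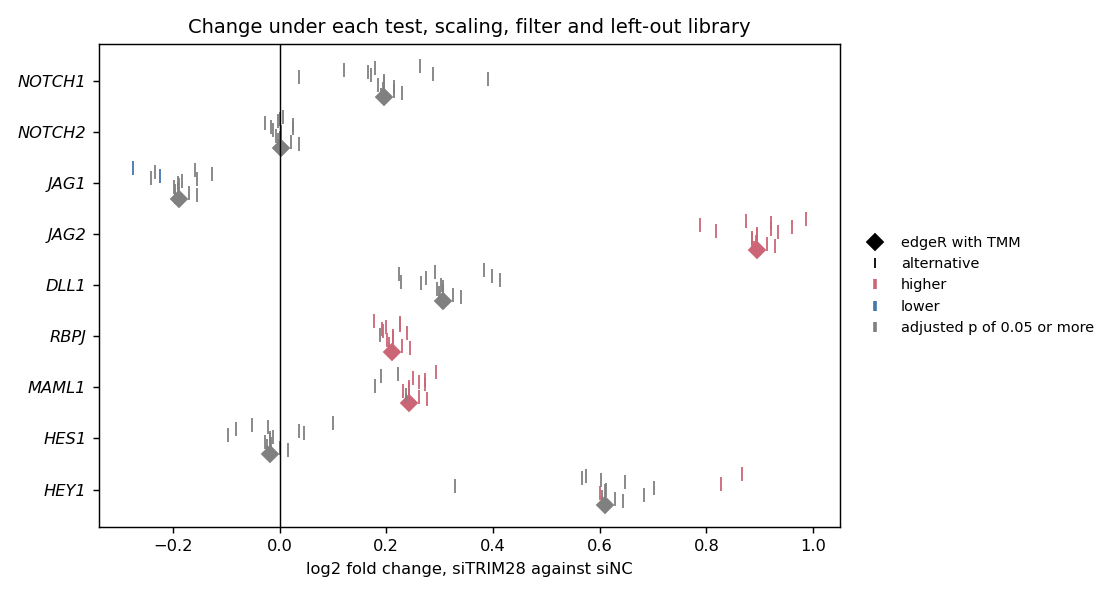
Log2 fold change of each tested gene under every test, scaling, filter and left-out library (ticks), with edgeR and TMM as diamonds; colour gives the direction where the adjusted p was under 0.05. JAG2 stays higher at every setting. RBPJ and MAML1 miss the threshold at some settings, JAG1 and HEY1 pass it only at some, and NOTCH2 and HES1 sit near 0.

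Within a role, members were compared by the log2 ratio of their levels in the same library, over 6 pairs. The JAG1 to JAG2 ratio fell from 3.07 ± 0.199 to 2.01 ± 0.292, a difference of −1.06, with no overlap. The JAG1 to DLL1 ratio fell by 0.48, and the HES1 to HEY1 ratio fell by 0.65, and the JAG2 to DLL1 ratio rose by 0.58, all without overlap. Each of these 4 gave p = 0.1 by exact two-sided permutation and 0.15 after adjustment over the 6 pairs. An exact p of 0.1 is the smallest that 3 against 3 libraries allow, so no ratio could pass the threshold. The permutation test therefore cannot decide whether these 4 ratios changed. The ligand ratios share genes, so they are not separate observations. Ratios of other gene pairs were not computed as a background, and the groups did not overlap for 52.0% of all single genes tested. The NOTCH1 to NOTCH2 ratio differed by 0.22 (exact permutation p = 0.5) and the MAML1 to RBPJ ratio by 0.031 (exact permutation p = 0.7), with overlapping groups.

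The rest of the pathway was read from 51 other genes in lists drawn up by role. Of the 42 that were tested, 9 rose, 13 fell and 20 did not pass the test, with a median log2 fold change of −0.073. Over all genes tested 21.3% rose and 20.5% fell. Groups did not overlap for 27 of the 42, against 52.0% of all genes, and 3 rose and 1 fell by at least 0.58, against 17.0% of all genes in either direction. The lists by role are short, and their counts are given as descriptions beside those shares. NOTCH4, DLL4, NEURL1, LFNG, MFNG, DTX1, HES5, HEY2 and HEYL were under the count minimum. The 12 with the largest change among the called genes without overlap are named here by list.

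Receptor cleavage had 3 of 8 tested genes higher and 2 lower (all genes, 21.3% and 20.5%). APH1B, a subunit of γ-secretase, rose 1.67-fold, 9.76 ± 0.951 CPM in siNC against 16.4 ± 0.437 in siTRIM28 (0.74 on the log2 scale, adjusted p = 3.71e-05). PSENEN, another subunit, rose from 10.6 ± 0.624 to 15.4 ± 0.766 CPM (0.54, adjusted p = 2.76e-04), but a same-strand gene, ENSG00000188223, overlaps it with 1086 counts and rose by 0.40 (adjusted p = 0.00282). APH1A, the paralog of APH1B, fell from 18.2 ± 0.918 to 13.1 ± 0.386 CPM (−0.48, adjusted p = 2.96e-04). The paralogs APH1A and APH1B moved in opposite directions in these libraries, with no overlap in either.

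Receptor turnover held 2 genes that rose and 2 that fell of 7 tested (all genes, 41.8% in either direction). NUMB, an inhibitor of Notch signalling, fell from 103 ± 1.73 to 81.9 ± 7.22 CPM (−0.33, adjusted p = 0.0012), and its relative NUMBL rose from 12.2 ± 0.494 to 18.4 ± 3.23 CPM (0.59, adjusted p = 0.00172). FBXW7, the substrate-binding part of a ubiquitin ligase that degrades the cut receptor, rose (0.36, adjusted p = 6.44e-04). DTX4, a Deltex-type ubiquitin ligase, fell most of the named genes (−0.80, adjusted p = 0.0019), and FAM111A-DT on its opposite strand had counts equal to 52.2% of those of DTX4.

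Of 4 tested genes of receptor glycosylation and maturation, 3 fell and none rose (all genes, 20.5% and 21.3%), with a median of −0.29, POGLUT1, which adds glucose to Notch EGF repeats, among them (−0.40, adjusted p = 0.0239). Ligand endocytosis had no call among 3 tested genes, and none at an unadjusted p under 0.05. Of the other 7 tested genes of the nuclear activation complex, 2 rose and 1 fell, and MAML2, a second Mastermind coactivator, rose (0.36, adjusted p = 0.00368).

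Of 10 tested RBPJ corepressors, 5 fell and 1 rose (all genes, 20.5% and 21.3%), with a median of −0.15. CTBP1 fell (−0.38, adjusted p = 9.15e-04), and CTBP1-AS and CTBP1-DT on its opposite strand fell too, by −0.42 and −0.99 (adjusted p = 0.0162 and 8.74e-05). RITA1, which exports RBPJ from the nucleus, fell (−0.33, adjusted p = 0.00433), and an unnamed gene on its opposite strand had counts equal to 32.2% of those of RITA1.

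Of the other 5 target genes, 2 were tested and 1 rose (all genes, 21.3%). HES4 had 41, 50 and 59 counts in siNC and 84, 73 and 74 in siTRIM28, with no overlap, and rose from 3.73 ± 0.843 to 6.14 ± 0.128 CPM (0.72, adjusted p = 0.00495). NRARP, a target gene whose product dampens Notch signalling, had 18, 20 and 12 counts in siNC and 22, 27 and 26 in siTRIM28, a log2 fold change of 0.69 that just missed the threshold (adjusted p = 0.051); it was named after its values were seen.

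**Figure D5:**
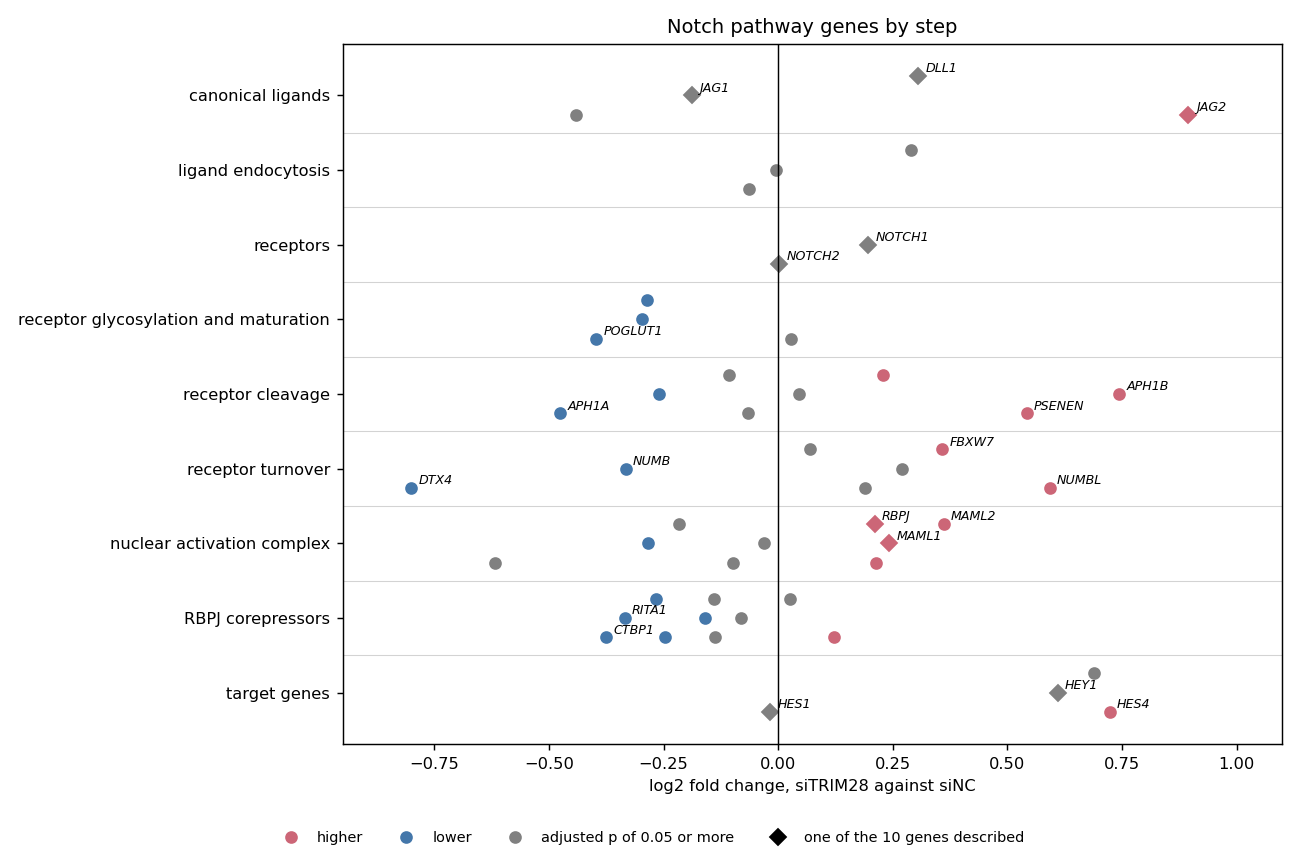
Log2 fold change of the tested genes of each pathway list (points, siTRIM28 against siNC), with the 10 genes described here marked. The corepressors and the glycosylation genes lie mostly below 0, and the cleavage genes spread to both sides. Of the 4 tested target genes, 3 lie above 0, of which only HES4 was called, and HES1 lies near it. Of all genes tested, 51.5% lie above 0.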

How the data were processed

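RNA-seq of poly(A)-selected RNA from T24 cells was analysed in 3 siNC and 3 siTRIM28 libraries, grouped by the treatment label. The authors deposited raw read counts per gene with gene coordinates and lengths, made per the submitters' processing notes with fastp 0.23.1, STAR 2.7.6a and featureCounts on GRCh38; the annotation release and whether counting used strand are not given in the sources used here. A second deposited table, the authors' RPKM of the genes they called, was not used.

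The quasi-likelihood test of edgeR 4.0.16 (R 4.3.3, two-sided) was run on TMM-scaled counts with the siRNA as its single factor. A gene entered it if 3 or more of the 6 libraries held 10 or more counts, and p-values were adjusted over all of them by the Benjamini-Hochberg method at 0.05. RPKM used the deposited gene lengths. Ratios and exact permutation tests used log2 CPM with a prior count of 2. The procedure was tested on simulated counts drawn with a common dispersion and independent libraries. That setting lacks the unequal likeness of these replicate libraries. Alternatives were other scalings, DESeq2 1.42.0, limma 3.58.1 (voom), other filters, a replicate block, summing of the closest libraries and leaving out each library. Leaving out siNC 3 and siTRIM28 1 together was chosen after seeing the data. The 10 genes and the pathway lists were chosen with earlier results of these data known. Other pathway genes were named where the adjusted p was under 0.05, the groups did not overlap and the mean was at least 50 counts, the 12 largest in size. Promoters came from RefSeq and NOTCH2 transcripts from GENCODE 29.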

Additional observations from a re-analysis of the deposited data

How the results depend on the processing

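JAG2 was called higher at every setting (0.79 to 0.99, adjusted p at most 0.00607). Among the 10 genes, the number called higher ranged from 1 (without siNC 1) to 4 when a library was left out, and the number called lower from 0 to 1, the 1 being JAG1 without siTRIM28 1; without siNC 3 and siTRIM28 1 together, 4 were higher and 1 lower. The directions of the smallest changes turned, and neither gene passed the test at any setting: NOTCH2 was −0.0025 with RLE scaling, −0.0029 with DESeq2 and −0.0074 without a filter on low counts (−0.028 to 0.026 with a library left out), and HES1 was 0.016 with upper-quartile scaling, 0.0011 with total counts and 0.10 without siNC 3 and siTRIM28 1 (−0.097 to 0.046 with 1 library left out). Same-numbered libraries did not deviate together (correlations of 0.0658, −0.0242 and 0.0506 over 12828 genes), so the numbers were not read as pairs; with a replicate block 3 of the 10 genes were higher and 0 lower, 8 and 15 of the other pathway genes, and 4030 and 3880 of all genes. The other pathway genes came to 11 higher and 11 lower with upper-quartile scaling, against 4420 and 3384 of all genes. DESeq2 gave 7 and 9 of them, against 2884 and 2994 of all genes. Without siNC 3 and siTRIM28 1 they came to 10 and 10, against 3848 and 4037 of all genes. Without siTRIM28 1 they came to 12 and 10, where the higher calls outnumbered the lower ones, against 3950 and 4180 of all genes. With the closest replicate libraries summed, 2 of the 10 genes were higher and 0 lower, and 2967 and 2968 of all genes. With a prior count of 0.5 in place of 2, the exact tests again left 5 genes and 4 ratios without overlap. At this depth no change of NOTCH3 was detectable.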
